A study of Rattus norvegicus with 10 samples.

Results

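The 60 genes described here, measured in the rat hippocampus, are named for translation initiation and elongation factors. They are every row of the expected count table whose symbol begins with Eif or Eef followed by a digit, out of 17168 rows. By symbol they fall into 13 EIF3 genes, 14 EIF4 genes, 8 EEF genes and 25 other EIF genes. The rule uses names alone, so it also takes in genes whose products are not themselves such factors. Among these are the kinase genes Eif2ak1, Eif2ak2, Eif2ak3, Eif2ak4 and Eef2k, the inhibitor genes Eif4ebp1, Eif4ebp2 and Eif4ebp3, and Eif4enif1, Eif4a3 and Eef1e1. Another is Eif2c1, an older symbol of Argonaute 1 (Ago1 in RefSeq), a small RNA-binding protein that is not an initiation factor. The scaffold gene Eif4g1 has no row under that symbol, so it was not analysed here. All 60 genes passed the filter on low counts.

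The study asked how ibudilast, an inhibitor of cyclic nucleotide phosphodiesterases, alters hippocampal transcripts in the TgF344-AD rat. The TgF344-AD line expresses mutant human transgenes, including APP, and is used to model Alzheimer's disease. The 5 ibudilast rats were male TgF344-AD animals fed chow with the drug from 5 months of age for 6 months, and the 5 untreated rats were male TgF344-AD animals on plain chow. All rats therefore carried the transgenes, and wild-type or female rats were not analysed here. Each library was made from the left hippocampus of 1 rat killed at 11 months after perfusion with phosphate-buffered saline. The tests set differences between the groups against the spread between these rats. Tissue of the ibudilast rats alone was kept in RNAlater-ICE, a tissue transition solution, so treatment and storage cannot be told apart in any difference below.

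Translation begins when a ternary complex of EIF2, GTP and initiator transfer RNA joins the small ribosomal subunit with EIF1, EIF1A, EIF5 and the large EIF3 complex. The EIF4F complex, made of the cap-binding protein EIF4E, the helicase EIF4A and an EIF4G scaffold, brings this assembly to the capped messenger RNA, and 4E-binding proteins hold EIF4E back until the kinase mTORC1 phosphorylates them. EEF1A then delivers charged transfer RNAs and EEF2 moves the ribosome along. In neurons these steps are regulated at synapses and are needed for lasting forms of plasticity.

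The 10 libraries held 14806807 to 17114238 counts with ibudilast and 15984438 to 18533520 counts without treatment. Among fixed marker lists, the summed level of 15 oligodendrocyte markers was 16481 to 19645 CPM (counts scaled to a common library total after TMM normalization) in ibudilast rats and 8107 to 15790 CPM in untreated rats, with 8 of 15 higher and 0 lower. The sum of 9 excitatory neuron markers was 806 to 3292 CPM in ibudilast rats and 3632 to 5641 CPM in untreated rats, with 0 higher and 3 lower. Sums of 8 microglia markers (300 to 360 CPM with ibudilast, 425 to 781 CPM without) and 8 endothelial markers (154 to 299 CPM with ibudilast, 321 to 595 CPM without) also did not overlap and were lower with ibudilast, with 6 and 5 members lower. Astrocyte markers overlapped, at 3995 to 5591 CPM with ibudilast and 4741 to 6593 CPM without, with 4 of 8 lower. Choroid plexus markers reached 7260 CPM in ibudilast replicate 1 and 7968 CPM in untreated replicate 2, against at most 355 CPM in the other ibudilast and 283 CPM in the other untreated libraries. Hippocampal neuron markers summed to 347 to 964 CPM with ibudilast and 608 to 1375 CPM without, and 9 of 10 passed the filter, Lct being the exception, with 0 higher and 3 lower. No marker was at 0 in all libraries. The part of these markers in the results below was not tested. In whole tissue, fewer cells of a type and less RNA per cell cannot be told apart.

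With ibudilast, 17 of the 60 genes rose, 17 fell and 26 did not pass, by edgeR's quasi-likelihood test at a Benjamini-Hochberg adjusted p under 0.05. Of all 12355 genes tested, 47.1% passed, 24.3% as higher and 22.8% as lower. The 34 members that passed were 56.7% of the 60, a share not far above this background. Changes were small. The members' median absolute log2 fold change was 0.209, against 0.363 over all genes tested, though the 2 sets were not matched for expression level. Only 1 of the 60, Eif4ebp3, changed by more than 1 on the log2 scale. The median log2 fold change was -0.01 for the members and 0.02 for all genes. The values of the 2 groups of rats did not overlap for 14 members that were higher and 13 that were lower with ibudilast, which makes 27 of 60 without overlap. Over all genes tested 33.4% did not overlap, 18.0% higher and 15.4% lower.

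Rises and falls were counted in each group of genes by symbol, and the groups were not tested against each other. Of 13 EIF3 genes 5 rose and 2 fell, and of 14 EIF4 genes 2 rose and 7 fell. Of 8 EEF genes 2 rose and 1 fell, and of the 25 other EIF genes 8 rose and 7 fell. These counts stand beside 24.3% higher and 22.8% lower over all genes tested. Summed over its genes, the EIF4 group was at 2360 ± 113 CPM in ibudilast rats and 2971 ± 164 CPM in untreated rats, whereas the EIF3 group was at 1565 ± 105 CPM with ibudilast and 1538 ± 27.2 CPM without (SD, n = 5 each). The EEF sum was 7893 ± 368 CPM with ibudilast and 7610 ± 786 CPM without, and the sum of the other EIF genes was 2448 ± 184 CPM with ibudilast and 2468 ± 96.6 CPM without (SD, n = 5 each). The sums are led by their most abundant genes, and were not tested.

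**Figure D1:**
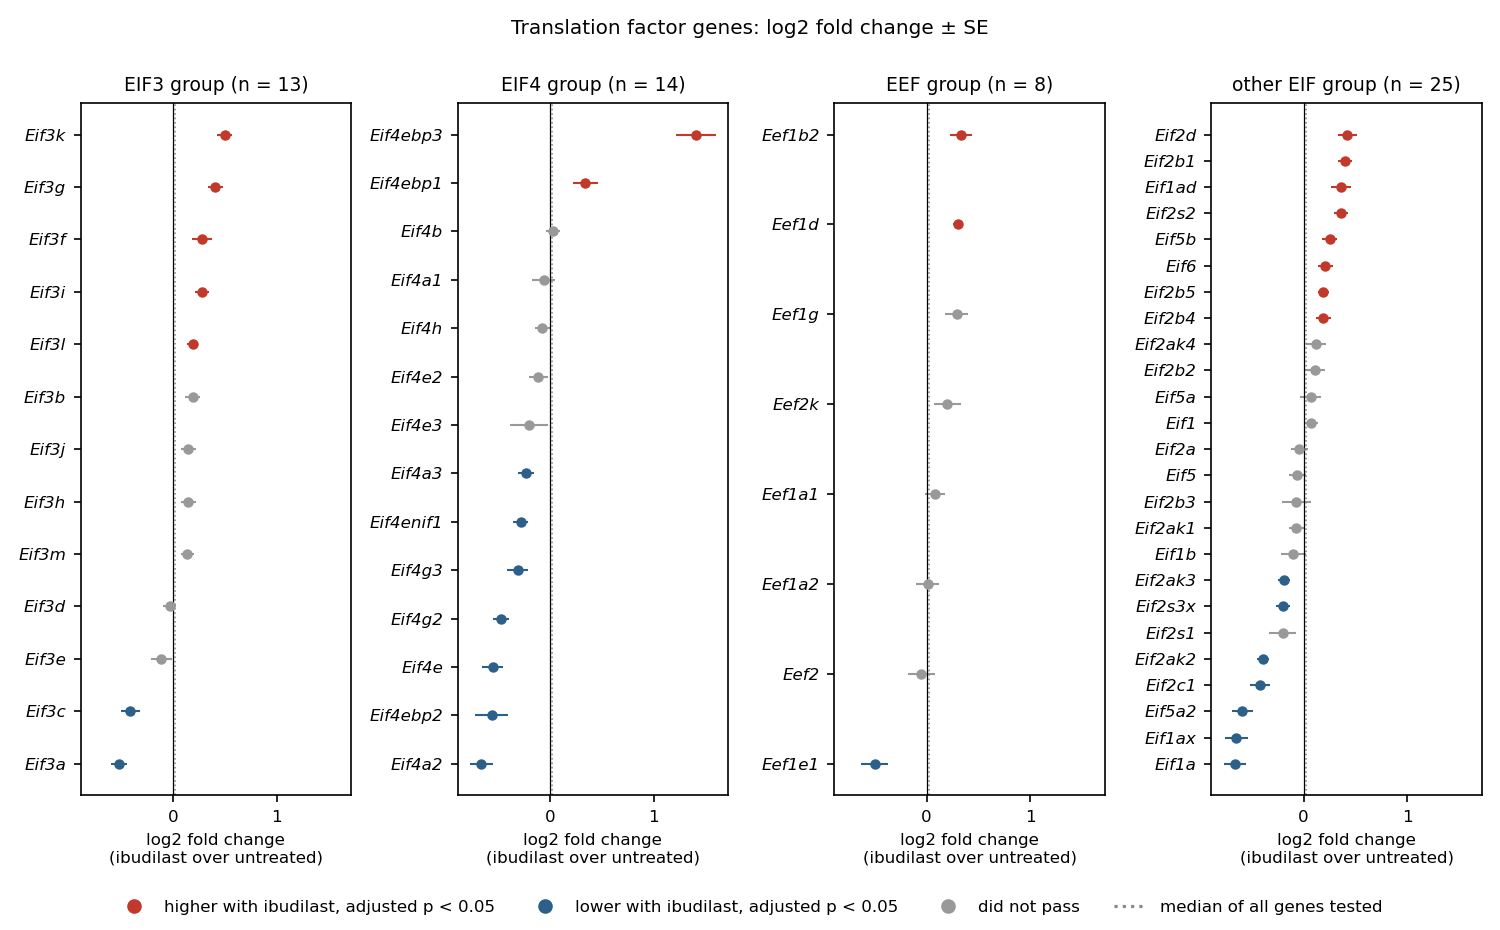
Log2 fold change with its SE (x axis, ibudilast over untreated) of each of the 60 genes (y axis), in a panel for each group, coloured by the call at an adjusted p under 0.05; the dotted line is the median of all genes tested, 0.02. Most EIF4 genes lie left of 0, with Eif4ebp3 at 1.41 the farthest right of all members, and most EIF3 genes lie right of 0, with Eif3a at -0.52 and Eif3c at -0.41 on the left.

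EIF3 is the largest initiation factor, a complex of 13 subunits lettered a to m that keeps the small ribosomal subunit open for messenger RNA. Its subunit genes split. Eif3k, Eif3g, Eif3i, Eif3l and Eif3f rose, while Eif3a and Eif3c, which encode the 2 scaffold subunits of the complex, fell. The remaining 6 (Eif3b, Eif3m, Eif3h, Eif3j, Eif3e and Eif3d) did not pass, at log2 fold changes from -0.11 to 0.19.

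Eif3k, a small accessory subunit, was at 62.1, 63.0, 71.5, 65.2 and 67.5 CPM in the ibudilast rats and at 43.6, 45.8, 51.0, 43.6 and 49.2 CPM in the untreated rats. The groups did not overlap, and the log2 fold change was 0.50 ± 0.07 (SE; adjusted p = 0.000248, edgeR). Eif3g, an RNA-binding subunit that takes part in scanning, was at 95.9, 112, 126, 109 and 116 CPM with ibudilast and at 82.0, 80.9, 86.7, 84.2 and 88.0 CPM without. Every ibudilast rat was above every untreated rat (log2 fold change 0.41 ± 0.07, adjusted p = 0.00124). Within 10 kb of Eif3g in the RefSeq assembly GRCr8, Ppan rose by 0.69, Angptl6 rose by 0.92 at a low level, and Dnmt1 fell by 0.23. Eif3i, the partner of EIF3G and EIF3B in a mobile module of the complex, was at 54.4, 54.3, 64.7, 54.3 and 63.6 CPM with ibudilast and at 46.7, 45.9, 46.5, 52.2 and 48.8 CPM without. Again the groups were apart, by 0.28 ± 0.07 (adjusted p = 0.0107). Eif3b, the third member of that module, was at 134 ± 11.6 CPM with ibudilast and 118 ± 5.62 CPM without (SD, n = 5 each), just outside the threshold (0.19, adjusted p = 0.0507).

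Among the fallen subunits, Eif3a was at 179, 170, 182, 149 and 174 CPM in ibudilast rats and at 235, 252, 223, 263 and 250 CPM in untreated rats. The highest ibudilast rat lay below the lowest untreated rat, and the log2 fold change was -0.52 ± 0.08 (adjusted p = 0.000362). Eif3c was at 160, 169, 179, 151 and 176 CPM with ibudilast and at 242, 243, 181, 213 and 232 CPM without. The groups were apart, though untreated replicate 3 lay next to the highest ibudilast rat, and the log2 fold change was -0.41 ± 0.09 (adjusted p = 0.00435). Expressed as a share of all EIF3 counts in a library, Eif3a made up 10.9 ± 0.601% in ibudilast rats and 15.9 ± 0.954% in untreated rats, and Eif3c 10.7 ± 0.226% with ibudilast and 14.4 ± 1.65% without (SD, n = 5 each). The shares of Eif3k were 4.21 ± 0.174% with ibudilast and 3.03 ± 0.200% without, and those of Eif3g 7.14 ± 0.452% with ibudilast and 5.48 ± 0.173% without. These shares compare a gene with itself between groups and are not corrected for transcript length.

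Eif3l, which forms a pair with EIF3K at the edge of the complex, rose by 0.19 ± 0.05 (adjusted p = 0.0138), at 77.5 ± 2.73 CPM with ibudilast and 67.7 ± 2.84 CPM without (SD, n = 5 each). Eif3f, a core subunit, was at 260, 264, 283, 245 and 277 CPM with ibudilast and at 197, 196, 278, 210 and 217 CPM without. Its groups overlapped through untreated replicate 3 alone, and its call (0.28 ± 0.10, adjusted p = 0.0467) was lost when any 1 library other than untreated replicate 3 was left out, at adjusted p up to 0.126. Without untreated replicate 3 it was at 0.35 (adjusted p = 0.00134). The count of EIF3 genes that rose depended on the scaling, with 9 of 13 by upper-quartile factors or by library size alone and 4 of 13 by RLE factors. It was 8 of 13 when 4 libraries were left out (ibudilast 1 and 4, untreated 2 and 3). With no low-count filter or with a replicate block it was 4 of 13, and with 1 rat left out it was 4 to 5.

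**Figure D2:**
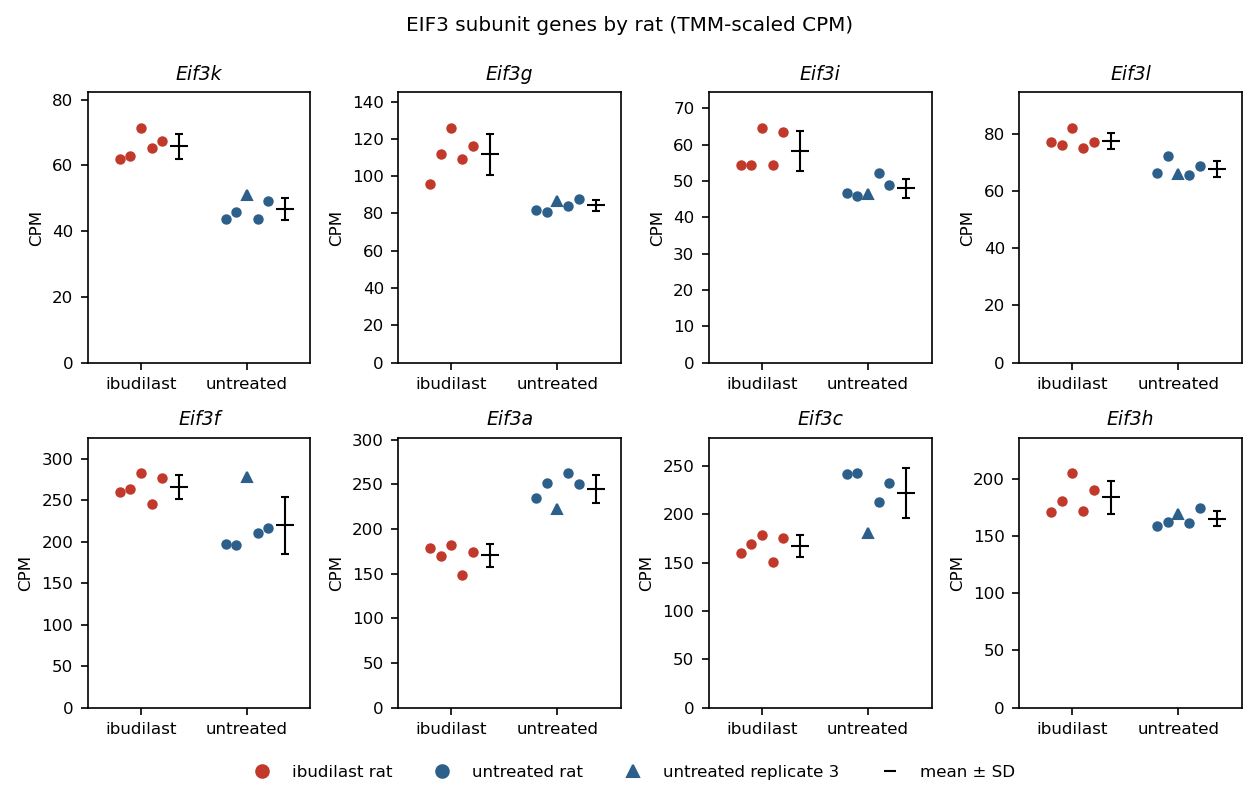
TMM-scaled CPM (y axis, from 0) of 8 EIF3 genes in each ibudilast rat (red, left) and each untreated rat (blue, right; triangle, untreated replicate 3), with the mean and SD in black. Eif3k, Eif3g, Eif3i and Eif3l are higher in all 5 ibudilast rats, Eif3a and Eif3c are lower in all 5, and for Eif3f the triangle lies at 278 CPM among the ibudilast rats.

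The promoters of the members were searched for short sequence motifs. Sequences came from RefSeq on GRCr8, and all 60 members were matched to a RefSeq gene by symbol or synonym. Windows of 300 bases around the annotated start were searched for 51 members with a single window. The motif CCGGAA, on either strand the core of binding sites of the ETS family of transcription factors, was present in 7 of 11 EIF3 promoters (63.6%). It was in 3 of 9 EIF4, 2 of 7 EEF and 12 of 24 other EIF promoters. In all it was in 24 of 51 members (47.1%) and in 18.9% of 17545 protein-coding promoters. By call it was present in 9 of 15 members that rose, 8 of 15 that fell and 7 of 21 that did not pass, so genes of both directions held it. The windows printed here give 60 bases before and 10 bases from the annotated start, with CCGGAA or its complement in capitals. The first 5 belong to the EIF3 genes that rose, Eif3k (chr1:93397478-93397547, minus strand), Eif3i (chr5:147226901-147226970, minus strand), Eif3g (chr8:27709937-27710006, minus strand), Eif3f (chr1:172369002-172369071, plus strand) and Eif3l (chr7:112532954-112533023, plus strand). The last 2 belong to Eif3a (chr1:269919016-269919085, minus strand) and Eif3c (chr1:190583058-190583127, minus strand), which fell.
Eif3k: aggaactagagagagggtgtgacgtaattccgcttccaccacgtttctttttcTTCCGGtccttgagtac
Eif3i: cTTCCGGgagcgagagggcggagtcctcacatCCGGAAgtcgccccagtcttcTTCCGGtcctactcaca
Eif3g: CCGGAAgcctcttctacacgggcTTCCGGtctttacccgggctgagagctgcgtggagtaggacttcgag
Eif3f: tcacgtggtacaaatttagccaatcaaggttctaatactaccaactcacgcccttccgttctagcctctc
Eif3l: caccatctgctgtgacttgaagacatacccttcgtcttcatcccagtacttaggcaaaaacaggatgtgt
Eif3a: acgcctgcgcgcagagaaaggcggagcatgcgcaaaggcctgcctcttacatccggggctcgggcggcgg
Eif3c: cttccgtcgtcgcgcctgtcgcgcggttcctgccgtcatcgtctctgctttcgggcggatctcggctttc

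Eif3k and Eif3i share a run of 13 bases, ttcTTCCGGtcct, that crosses the annotated start, the longest shared run among 55 pairs of EIF3 windows. Eif3i holds 3 copies of the motif in its window and Eif3g 2. In Eif3f and Eif3c the motif lies in the 300 bases but outside these windows, and for Eif3l, which rose, and Eif3a, which fell, it was not in the 300 bases. Eif3m, which did not pass, holds 1 copy in its window. Other motifs were also searched on both strands, and occurrences of different motifs may share bases. The core of GC boxes, GGGCGG, was in 6 of 15 members that rose, 12 of 15 that fell, 18 of 21 that did not pass and 43.5% of all promoters. The E-box CACGTG was in 10 of 51 members (19.6%) and 7.34% of all promoters, CCAAT in 18 (35.3%) and 38.4%, TATAAA in 3 (5.88%) and 13.3%, and the full cyclic AMP response element TGACGTCA in 1 (1.96%), Eef2, and 2.23%. A match describes letters in a window and not a site in use.

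The EIF4 genes include the cap-binding machinery. Of these, Eif4e, Eif4a2, Eif4a3, Eif4g2, Eif4g3, Eif4ebp2 and Eif4enif1 fell, Eif4ebp1 and Eif4ebp3 rose, and Eif4a1, Eif4b, Eif4e2, Eif4e3 and Eif4h did not pass, at log2 fold changes from -0.20 to 0.03. Eif4e, which encodes the cap-binding protein itself, was at 64.4, 63.3, 74.8, 56.0 and 69.5 CPM in ibudilast rats and at 103, 89.0, 79.0, 110 and 101 CPM in untreated rats. All ibudilast rats were below all untreated rats (log2 fold change -0.55 ± 0.10, adjusted p = 0.00159, edgeR). RefSeq lists 10 pseudogenes named for Eif4e, and reads could be split with such copies in the authors' counting. Eif4a2, the helicase gene that is abundant in neurons, was at 338, 370, 407, 312 and 381 CPM with ibudilast and at 628, 577, 443, 620 and 591 CPM without. The fall of 0.66 ± 0.11 on the log2 scale (adjusted p = 0.000938) left no overlap, although untreated replicate 3 stood well below the other untreated rats. Rfc4, within 10 kb of Eif4a2 in GRCr8, rose by 0.76. Without a stated strand setting, reads of a gene and of an overlapping gene on the other strand cannot be told apart.

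Eif4g2, also called DAP5, encodes a scaffold that lacks the EIF4E-binding part and supports cap-independent initiation. It was at 771, 705, 719, 665 and 703 CPM in ibudilast rats and at 971, 1003, 913, 1052 and 986 CPM in untreated rats. The groups were far apart compared with their spread (log2 fold change -0.47 ± 0.08, adjusted p = 0.000824). Eif4g3, a scaffold of the EIF4F complex, was at 228 ± 13.9 CPM with ibudilast and 284 ± 34.9 CPM without (SD, n = 5 each), at -0.31 ± 0.10 (adjusted p = 0.0197). This call was lost without untreated replicate 5 (adjusted p = 0.0506), with library size alone (adjusted p = 0.0651) and with a replicate block (adjusted p = 0.0507). It was also lost without both ibudilast replicate 1 and untreated replicate 2, which held choroid plexus markers (-0.27, adjusted p = 0.0707). Eif4enif1, which encodes the shuttling protein 4E-T that carries EIF4E to the nucleus and to processing bodies, was at 39.4, 42.9, 46.9, 39.2 and 45.3 CPM with ibudilast and at 54.8, 53.9, 50.0, 49.7 and 51.7 CPM without. It fell by 0.28 ± 0.07 (adjusted p = 0.00632) without overlap. In GRCr8 Eif4enif1 overlaps Drg1, which was at 0.02, and lies within 10 kb of Sfi1, which rose by 0.89. Eif4a3, a helicase of the exon junction complex and not of EIF4F, was at -0.23 ± 0.08 (adjusted p = 0.0319), and at -0.16 (adjusted p = 0.196) with library size alone. Its call was also lost without any 1 of ibudilast replicates 1, 2, 3 and 5 or untreated replicates 1, 2 and 5, at adjusted p up to 0.0798.

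The 3 genes of 4E-binding proteins, the inhibitors of EIF4E, did not move together. Eif4ebp2, the form known as the main one in brain, was at 20.9, 16.8, 12.4, 21.0 and 14.4 CPM in ibudilast rats and at 25.1, 24.7, 30.8, 24.7 and 21.2 CPM in untreated rats. The groups only just parted, with 21.0 CPM in ibudilast replicate 4 and 21.2 CPM in untreated replicate 5, and the log2 fold change was -0.56 ± 0.16 (adjusted p = 0.0132). Eif4ebp3, induced by the factor TFE3 in cells kept under mTORC1 inhibition, was at 12.4, 9.17, 8.65, 8.80 and 9.96 CPM with ibudilast and at 2.58, 3.37, 5.24, 3.20 and 3.98 CPM without. This was the largest change among the 60 genes (1.41 ± 0.19, adjusted p = 0.000244), at low counts. Its GRCr8 neighbours within 10 kb were Sra1, which rose by 1.00, Apbb3, which rose by 0.67, and Ankhd1, at 0.18 (adjusted p = 0.173), and read-through transcripts from Ankhd1 into Eif4ebp3 are known in human. Eif4ebp1 was at 14.5, 15.9, 13.1, 12.7 and 14.7 CPM with ibudilast and at 9.86, 9.69, 14.4, 11.0 and 11.1 CPM without. Its groups overlapped through untreated replicate 3, and its call (0.34 ± 0.12, adjusted p = 0.0417) was lost without any 1 of ibudilast replicates 1, 2, 4 and 5 or untreated replicates 1, 2, 4 and 5 (0.27 to 0.35, adjusted p up to 0.116).

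**Figure D3:**
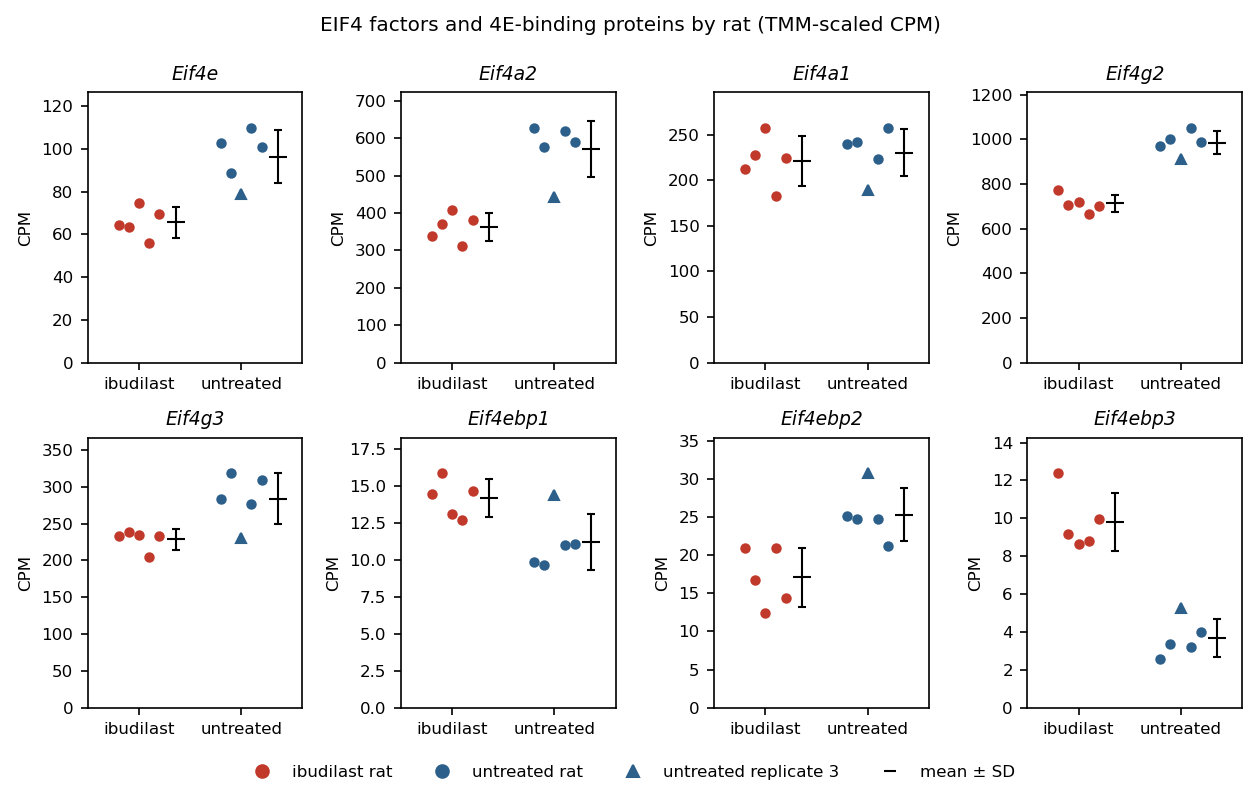
TMM-scaled CPM (y axis, from 0) of 8 EIF4 genes in each ibudilast rat (red, left) and each untreated rat (blue, right; triangle, untreated replicate 3), with the mean and SD in black. Eif4e, Eif4a2, Eif4g2 and Eif4ebp2 are lower and Eif4ebp3 is higher in all 5 ibudilast rats, while the groups overlap for Eif4a1, Eif4g3 and Eif4ebp1.

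Promoters of EIF4 genes that fell are shown for Eif4a2 (chr11:91275314-91275383, minus strand, GRCr8) and Eif4ebp2 (chr20:29942913-29942982, minus strand), which hold CCGGAA or its complement in these windows, as Eif3k, Eif3i and Eif3g do, and for Eif4e (chr2:229740693-229740762, plus strand), whose 300 bases do not hold it.
Eif4a2: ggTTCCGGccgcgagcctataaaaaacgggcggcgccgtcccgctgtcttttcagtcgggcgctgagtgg
Eif4ebp2: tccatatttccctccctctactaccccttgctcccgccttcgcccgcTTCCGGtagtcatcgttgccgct
Eif4e: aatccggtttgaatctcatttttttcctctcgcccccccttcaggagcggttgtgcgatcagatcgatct

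Several factors have a closely related second gene, and the balance within a pair does not depend on how libraries are scaled. Within-library log2 ratios were compared for 7 pairs, by exact permutation tests over the 10 rats, two-sided, with Benjamini-Hochberg adjustment over the 7. Planned pairs of Eif4g1 with Eif4g2 and Eif4g3 were left out for want of a row for Eif4g1. The smallest p this design allows is 0.00794. The ratio of Eif4a1 to Eif4a2 was -0.67, -0.70, -0.66, -0.77 and -0.76 in ibudilast rats and -1.39, -1.26, -1.23, -1.47 and -1.19 in untreated rats. It shifted by 0.60 toward Eif4a1 with no overlap (exact adjusted p = 0.0139), while Eif4a1 itself did not pass, at 213, 228, 258, 183 and 225 CPM with ibudilast and 240, 242, 189, 224 and 258 CPM without (-0.06, adjusted p = 0.686, edgeR). Untreated replicate 3, lowest of its group in both genes, lay inside its group in the ratio. RefSeq names 8 pseudogenes of Eif4a1 and 2 of Eif4a2, and reads could be split with such copies here too.

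Eif5a and Eif5a2 encode a factor that relieves stalled ribosomes and that carries the unusual amino acid hypusine. Their log2 ratio averaged 2.48 ± 0.162 in ibudilast rats and 1.83 ± 0.188 in untreated rats (SD, n = 5 each), a shift of 0.65 without overlap (exact permutation test, adjusted p = 0.0139). Eif5a2 was at 64.3, 69.9, 77.7, 69.9 and 75.0 CPM with ibudilast and at 115, 90.2, 93.2, 121 and 119 CPM without, and fell by 0.59 ± 0.10 (adjusted p = 0.000782, edgeR). Eif5a did not pass, at 381, 401, 482, 324 and 416 CPM with ibudilast and 388, 375, 371, 367 and 404 CPM without (0.07, adjusted p = 0.586). Eif5a overlaps Gps2 in GRCr8, which rose by 0.57.

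The ratio of Eif4ebp1 to Eif4ebp2 was -0.24 ± 0.360 with ibudilast and -1.18 ± 0.178 without, a shift of 0.93 (exact permutation test, adjusted p = 0.0139, n = 5 each, SD). The ratio of Eif4e to Eif4e2, a cap-binding homologue that represses translation, was 2.40 ± 0.0700 with ibudilast and 2.84 ± 0.202 without, a shift of -0.44 (exact adjusted p = 0.0139). Eif4e2 did not pass, at 12.4, 12.8, 13.3, 10.4 and 13.3 CPM with ibudilast and 13.9, 13.7, 13.0, 12.5 and 13.8 CPM without. For the other pairs the shift did not pass. It was 0.07 for Eef1a1 over Eef1a2 (exact adjusted p = 0.694), 0.16 for Eif1 over Eif1b (0.278) and 0.01 for Eif1a over Eif1ax (0.937). Without untreated replicate 3 the shift of Eif1 over Eif1b was 0.25 and passed (exact adjusted p = 0.0222). For this pair RefSeq names 8 pseudogenes of Eif1 and 0 of Eif1b, so reads of Eif1 could likewise be split.

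**Figure D4:**
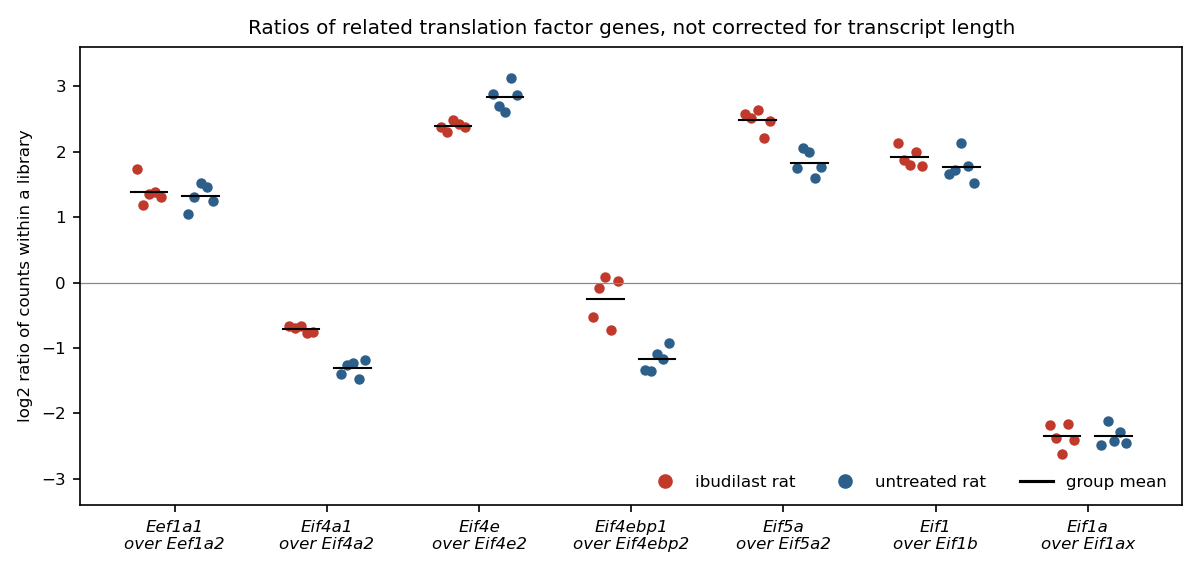
Log2 ratio of the counts of 2 related genes within each library (y axis) for 7 pairs (x axis), with ibudilast rats in red on the left, untreated rats in blue on the right and the group means as black lines. The groups are apart for Eif4a1 over Eif4a2, Eif4e over Eif4e2, Eif4ebp1 over Eif4ebp2 and Eif5a over Eif5a2, and overlap for the other 3 pairs.

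The factors that choose the start codon and load the initiator transfer RNA went both ways. Eif1a and Eif1ax encode near-identical forms of EIF1A, which helps scanning, and both fell. Eif1ax was at 71.2, 77.1, 89.6, 62.4 and 80.9 CPM in ibudilast rats and at 127, 111, 100, 137 and 122 CPM in untreated rats (log2 fold change -0.65 ± 0.11, adjusted p = 0.000899, edgeR). Eif1a was at 15.8, 14.9, 14.5, 13.9 and 15.3 CPM with ibudilast and at 22.5, 25.5, 18.7, 28.3 and 22.3 CPM without (-0.66 ± 0.11, adjusted p = 0.000692). The groups of both genes were apart, but such close copies may share reads, so the split between them is uncertain. Tmed7, next to Eif1a in GRCr8, fell by 0.81 and Rps6ka3, near Eif1ax, by 0.79. Eif1, the gatekeeper of start codon choice, was at 393, 402, 440, 394 and 403 CPM with ibudilast and 389, 373, 387, 401 and 391 CPM without (0.07, adjusted p = 0.437). Eif1b was at 89.7, 109, 126, 98.6 and 117 CPM with ibudilast and 123, 113, 88.3, 117 and 137 CPM without, and likewise did not pass (-0.10, adjusted p = 0.554).

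EIF2 has 3 subunits, and its genes differed from each other. Eif2s2, the beta subunit gene, was at 115, 112, 133, 112 and 120 CPM with ibudilast and at 95.2, 86.0, 89.1, 95.3 and 95.7 CPM without. It rose without overlap (0.36 ± 0.07, adjusted p = 0.00139). The gamma subunit gene Eif2s3x was at 119 ± 8.30 CPM with ibudilast and 138 ± 7.34 CPM without (SD, n = 5 each; -0.20 ± 0.07, adjusted p = 0.0286), and its call was lost with library size alone (-0.13, adjusted p = 0.117) and without any 1 of ibudilast replicates 1 and 2 or untreated replicates 1 and 5, at adjusted p up to 0.0642. The alpha subunit gene Eif2s1, whose product is the target of the stress kinases, was at -0.20 (adjusted p = 0.243), and at -0.31 (adjusted p = 0.0351) without untreated replicate 3. Of the 5 subunit genes of EIF2B, the exchange factor that recharges EIF2 with GTP, 3 rose, and Eif2b2 and Eif2b3 did not pass. Eif2b1 was at 29.3 ± 2.20 CPM with ibudilast and 22.3 ± 1.35 CPM without (0.40 ± 0.07, adjusted p = 0.00153; it overlaps Gtf2h3, at -0.01), and Eif2b5, the catalytic subunit gene, at 57.1 ± 1.47 CPM with ibudilast and 49.9 ± 1.95 CPM without (0.19 ± 0.05, adjusted p = 0.0111; SD, n = 5 each). Eif2b4 was at 0.19 (adjusted p = 0.0332) and lost its call without any 1 rat other than ibudilast replicates 1 and 5, at adjusted p up to 0.116.

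A family of 4 kinases phosphorylates EIF2 alpha under different stresses, and 2 of their genes fell. Eif2ak2, the double-stranded RNA sensor PKR, was at 34.4, 29.4, 30.4, 34.5 and 33.5 CPM with ibudilast and at 42.0, 43.0, 42.4, 41.5 and 43.2 CPM without. The untreated values lay within 2 CPM of each other and above all ibudilast values (-0.39 ± 0.06, adjusted p = 0.000699). Eif2ak3, the endoplasmic reticulum stress sensor PERK, was at -0.19 ± 0.06 (adjusted p = 0.0286), at -0.12 (adjusted p = 0.241) with library size alone, and lost its call without any 1 of ibudilast replicates 1, 3 and 5 or untreated replicates 1 and 4, at adjusted p up to 0.0716. The heme-regulated Eif2ak1 was at -0.07 (adjusted p = 0.476) and the amino acid sensor Eif2ak4, or GCN2, at 0.12 (adjusted p = 0.373). Among the remaining genes Eif2d, which can deliver transfer RNA without GTP, rose by 0.42 ± 0.09, the subunit-joining factor gene Eif5b by 0.25 ± 0.07, Eif1ad by 0.36 ± 0.10 and the 60S-binding factor gene Eif6 by 0.21 ± 0.07 (adjusted p = 0.00411, 0.0139, 0.0117 and 0.0255). The call of Eif6 was lost without any 1 of ibudilast replicates 2 to 5 or untreated replicates 2 to 4, at adjusted p up to 0.0724. Eif2c1, the Argonaute gene, fell by 0.42 ± 0.10 (adjusted p = 0.00438). Eif5, the GTPase activator of EIF2, was at -0.06 and Eif2a at -0.04, and neither passed.

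Of the 8 EEF genes 5 did not pass. The median absolute log2 fold change of the 8 was 0.242, against 0.363 over all genes tested, again without matching for expression level. Eef1d, Eef1b2 and Eef1g encode the exchange complex that reloads EEF1A with GTP. Eef1d was at 93.1, 98.5, 97.7, 98.8 and 99.2 CPM in ibudilast rats and at 77.0, 78.2, 80.7, 79.1 and 81.4 CPM in untreated rats. It rose by 0.30 ± 0.05 (adjusted p = 0.000690, edgeR) without overlap. Eef1b2 was at 151, 158, 184, 168 and 163 CPM with ibudilast and at 121, 110, 166, 130 and 128 CPM without. It rose by 0.33 ± 0.11 (adjusted p = 0.0255), with untreated replicate 3 among the ibudilast rats, and the call was lost without any 1 of ibudilast replicates 3 and 4 or untreated replicates 1, 2, 4 and 5, at adjusted p up to 0.0744. Eef1g was at 484, 499, 554, 527 and 518 CPM with ibudilast and at 373, 387, 545, 406 and 405 CPM without, and did not pass (0.29 ± 0.11, adjusted p = 0.0518). Without untreated replicate 3 it was at 0.37 and passed (adjusted p = 0.00122), and RefSeq names 16 pseudogenes of Eef1g.

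The delivery factors Eef1a1 and Eef1a2, the second of which takes over in mature neurons and muscle, did not pass. Eef1a1 was at 3757, 3408, 3990, 3561 and 3811 CPM with ibudilast and 3170, 3355, 4028, 3570 and 3456 CPM without (0.08 ± 0.10, adjusted p = 0.569). Eef1a2 was at 1127, 1503, 1561, 1371 and 1551 CPM with ibudilast and 1528, 1354, 1407, 1294 and 1460 CPM without (0.01 ± 0.11, adjusted p = 0.930). The values of Eef1a1 are the less certain, since RefSeq names 20 pseudogenes of it. Eef2, the translocase, was at 1884 to 1962 CPM in ibudilast rats and at 1667 to 1973 CPM in untreated rats other than replicate 3, which was at 2669 CPM (-0.05, adjusted p = 0.799, and 0.06, adjusted p = 0.548, without that rat). Its kinase gene Eef2k was at 52.2, 42.1, 37.2, 48.8 and 39.9 CPM with ibudilast and 30.7, 43.9, 44.3, 39.1 and 34.1 CPM without, and did not pass (0.20 ± 0.13, adjusted p = 0.228). Untreated replicate 3 was the highest untreated rat for 5 of the 8 EEF genes (Eef1b2, Eef1g, Eef1a1, Eef2 and Eef2k) and the lowest for 0 of them, whereas for EIF4 genes it was the highest for 4 and the lowest for 8 of 14. Over all genes tested that rat was the highest untreated rat for 32.8% and the lowest for 35.1%, and these counts were not tested. Eef1e1, which encodes a scaffold of the multi-synthetase complex rather than an elongation factor, was at 18.6, 19.4, 25.4, 17.8 and 23.8 CPM with ibudilast and at 32.6, 25.5, 25.8, 33.6 and 31.1 CPM without. It was the only EEF gene that fell (-0.50 ± 0.13, adjusted p = 0.00776), with 25.4 CPM in ibudilast replicate 3 next to 25.5 CPM in untreated replicate 2.

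**Figure D5:**
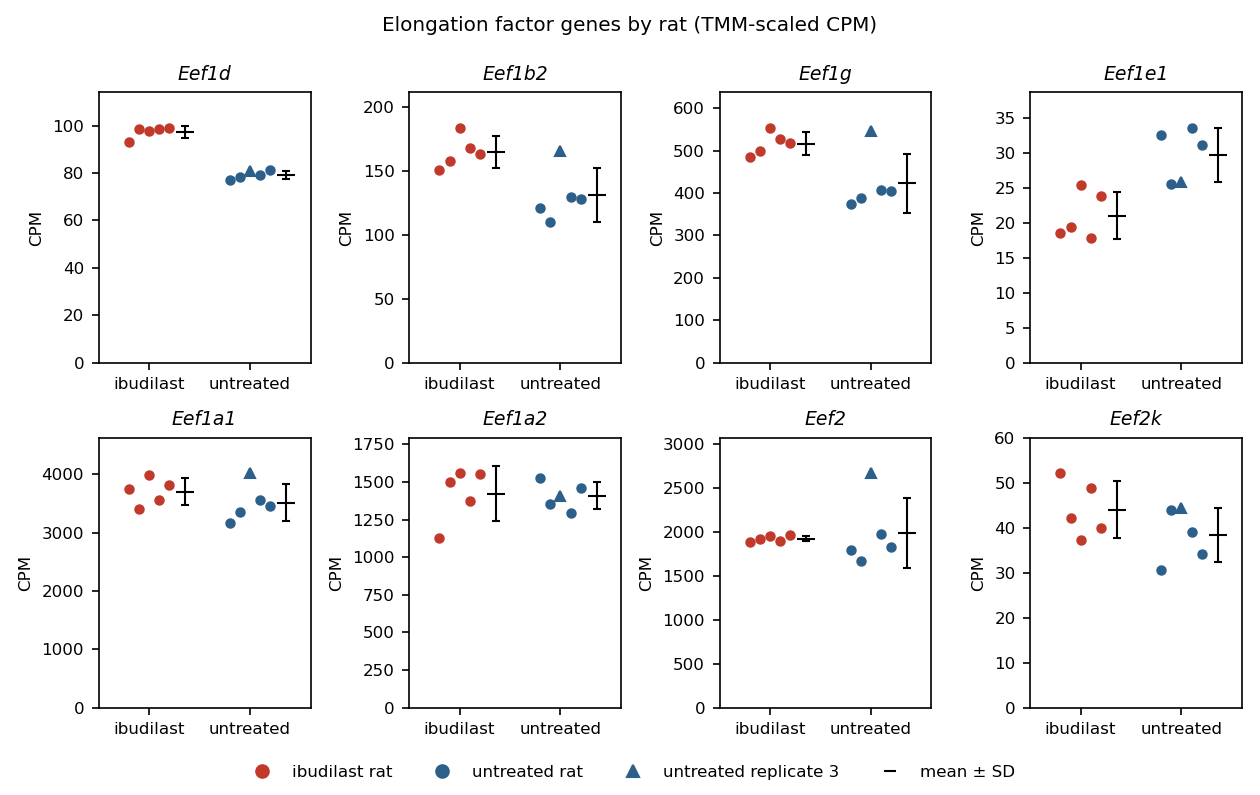
TMM-scaled CPM (y axis, from 0) of the 8 EEF genes in each ibudilast rat (red, left) and each untreated rat (blue, right; triangle, untreated replicate 3), with the mean and SD in black. Eef1d is higher and Eef1e1 lower in all 5 ibudilast rats, and the triangle stands above the other untreated rats for Eef1b2, Eef1g, Eef1a1, Eef2 and Eef2k.

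Messenger RNAs of several of these factors are known in mammals to begin with a C and a pyrimidine tract, the TOP element that places them under mTORC1. A C followed by at least 4 pyrimidines, with the C within 5 bases of the annotated start, was found in 3 of 7 EEF, 3 of 11 EIF3, 0 of 9 EIF4 and 7 of 24 other EIF promoters, and in 16.1% of all promoters. By call it was in 3 of 15 members that rose, 5 of 15 that fell and 5 of 21 that did not pass. RefSeq starts may lie off the start used in hippocampus, so no match says only that these letters are not in this window. The windows of Eef1b2 (chr9:72074031-72074100, plus strand, GRCr8) and Eef1a1 (chr8:88225060-88225129, minus strand), in which the last 10 bases run from the annotated start, show such a tract at their ends, with CCGGAA or its complement again in capitals.
Eef1b2: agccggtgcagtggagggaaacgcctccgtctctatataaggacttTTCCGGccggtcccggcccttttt
Eef1a1: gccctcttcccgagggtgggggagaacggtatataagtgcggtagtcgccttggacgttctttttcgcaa

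Lists of related genes were described by the same fit, and their counts stand beside 24.3% higher and 22.8% lower (47.1% in all) over all genes tested, with a median log2 fold change of 0.02. Of 27 tested genes (29 listed) of mTORC1, S6 kinase and MNK signalling, 11 rose, 6 fell and 10 did not pass, with a median log2 fold change of -0.03. Rps6kb2, which encodes a ribosomal S6 kinase, was at 76.9, 83.0, 77.8, 72.6 and 86.4 CPM with ibudilast and at 15.4, 14.4, 28.9, 12.7 and 16.6 CPM without (2.17 ± 0.20, adjusted p = 3.1e-05). No ibudilast rat came near the untreated range, in which replicate 3 was the highest. Among its GRCr8 neighbours within 10 kb, Coro1b rose by 0.25, at 128 CPM with ibudilast and 108 CPM without. Ptprcap and Cabp4 rose by 1.23 and 1.72, both at low levels (1.3 and 3.22 CPM with ibudilast, 0.544 and 0.971 CPM without). Lamtor4, part of the complex that holds mTORC1 on the lysosome, rose by 0.54 ± 0.07, and Rheb, the GTPase that activates it, fell by 0.52 ± 0.07.

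Of 14 tested genes (16 listed) of the integrated stress response, 3 rose, 3 fell and 8 did not pass (median log2 fold change -0.10), so that 6 of 14 passed, beside 47.1% over all genes. Gcn1l1, the partner that activates GCN2, rose by 0.44 ± 0.05, at 147 to 163 CPM with ibudilast and 111 to 113 CPM without, and Rplp0, within 10 kb of it in GRCr8, rose by 0.49. Ddit3 (CHOP), a stress-induced transcription factor, was at 34.5 ± 4.30 CPM with ibudilast and 25.0 ± 1.31 CPM without (SD, n = 5 each). It rose by 0.47 ± 0.09 (adjusted p = 0.00180, edgeR), though it overlaps Mars, which rose by 0.19. Within 10 kb of Ddit3 in GRCr8, Mbd6 rose by 1.33 and Dctn2 was at 0.03. The partner gene of Ddit3, Cebpg, fell by 0.47 ± 0.08 (adjusted p = 0.00107, edgeR). Of 17 tested (23 listed) messenger RNA partners, termination and recycling factors, 2 rose, 9 fell and 6 did not pass (median -0.19), beside 24.3% higher and 22.8% lower over all genes. Cyfip1, which joins EIF4E to the fragile X protein, fell by 0.89 ± 0.12, at 66.5 ± 13.1 CPM with ibudilast and 123 ± 8.37 CPM without (SD, n = 5 each), and the overlapping gene Nipa1 fell by 0.52. Paip1, which binds poly(A)-binding protein and EIF3, fell by 0.62 ± 0.08, and Gtpbp2, a ribosome rescue factor, rose by 0.72 ± 0.06.

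Of 8 tested enzymes (9 listed) that make diphthamide on EEF2 or hypusine on EIF5A, 2 rose, 0 fell and 6 did not pass (median log2 fold change 0.15). Dph3 rose by 0.32 ± 0.06 and Dhps, deoxyhypusine synthase, by 0.30 ± 0.07, and Dph1 was at 0.52 (adjusted p = 0.0521). In GRCr8 each of the 3 overlaps a gene that rose, Dph3 with Oxnad1 (by 0.33), Dhps with Wdr83 (by 0.62) and Dph1 with Ovca2 (by 1.02). Of 9 tested mitochondrial translation factors (10 listed), 1 rose, 1 fell and 7 did not pass (median -0.04). Gfm1, the mitochondrial counterpart of EEF2, fell by 0.51 ± 0.08, at 27.8 ± 1.88 CPM with ibudilast and 39.6 ± 3.12 CPM without (SD, n = 5 each), and Mtif2, the initiation factor, rose by 0.35 ± 0.11 (adjusted p = 0.0238). The call of Mtif2 was lost without any 1 of ibudilast replicates 2 and 3 or untreated replicates 2, 3 and 4 (adjusted p up to 0.0694). Mtif3 was at 0.21 (adjusted p = 0.0671) and overlaps Gtf3a, which rose by 0.50, and Gfm1 overlaps Lxn, at 0.16.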

How the data were processed

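Per the submitters' processing notes, bcl2fastq, Bowtie2 2.1.0, RSEM 1.2.15, edgeR and rn6 were used, with no role given for each, and libraries came from a stranded messenger RNA kit, per the labels' protocols. Annotation, filters and the strand setting of counting are not stated in the labels or file headers. The authors deposited expected counts per gene (12% of values not whole, rounded here) and a normalized signal, from which 99.3% of values gave whole reads within 0.01. All 20 columns were matched to samples by title.

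The test was edgeR 4.0.16 (R 4.3.3, limma 3.58.1): quasi-likelihood F test, robust fit, TMM, filterByExpr, no covariates, adjusted over 12355 genes. SE is the log2 fold change divided by the root of F. CPM are TMM-scaled. Ratios used a pseudocount of 0.5. Replicates are separate rats per the design text, and no pair in a group agreed within sampling noise (lowest chi-square per gene 11.3). Members held 43 or more counts in every library. Values per rat were given for up to 5 members of each group by smallest p and for related pairs, and up to 3 genes of each related list by smallest p; Eif3f and Eef2 were added after their values were seen. The members, lists and pairs were chosen with earlier results of these data known, and the promoter motifs other than the pyrimidine tract after the data were seen. The fit was tested on simulated data. Promoters and neighbours came from RefSeq (GRCr8), while the processing notes name rn6. Neighbours are named for some genes only.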

Additional observations from a re-analysis of the deposited data

Results flagged for a closer look

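Gaps within a group of 5 rats were examined for 29 members and 7 ratios, 72 groups in all. Of these, 4 were larger than Dixon's critical value of 0.71, which chance alone passes in about 1 in 20 groups. The cause of these gaps was not tested. Untreated replicate 3 was at 545 CPM for Eef1g, where the other untreated rats were at 373 to 406 CPM, and at 443 CPM for Eif4a2, where the others were at 577 to 628 CPM. Without that rat the log2 fold changes were 0.37 (adjusted p = 0.00122) and -0.76 (adjusted p = 8.16e-05, edgeR's quasi-likelihood test). Ibudilast replicate 1 was at 93.1 CPM for Eef1d, below 97.7 to 99.2 CPM in the other ibudilast rats, and ibudilast replicate 3 was at 440 CPM for Eif1, above 393 to 403 CPM. Leaving these out gave 0.31 (adjusted p = 0.000980) for Eef1d and 0.03 (adjusted p = 0.701) for Eif1. Members outside the 29 were not examined in this way. Among them, untreated replicate 3 was at 278 CPM for Eif3f, with the other untreated rats at 196 to 217 CPM. For Eef2 that rat was at 2669 CPM, with the others at 1667 to 1973 CPM.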

How the results depend on the processing

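The results were recomputed with 3 other scalings (RLE, upper-quartile, library size alone), with DESeq2 1.42.0, voom and a limma-trend fit of the deposited signal (log2, pseudocount 1), with no filter or at least 10 counts in 5 libraries, with a ratio pseudocount of 5, with a replicate block, with each rat left out, with 4 libraries left out (ibudilast 1 and 4, untreated 2 and 3), and in 2 ways added after the data were seen (recovered whole reads, and leaving out untreated replicate 2 and ibudilast replicate 1, which held choroid plexus markers). No member's call reversed in 22 settings, and 22 of 34 called members passed in all of them. Recovered reads called the same number, 5817 genes. The cause of the changes below was not tested.

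Members higher numbered 17, 12 to 16 with 1 rat left out and 11 with a replicate block. They numbered 22 with upper-quartile factors, 22 with library size alone and 21 with the 4 libraries left out. Members lower numbered 17, and 14 to 19 with 1 rat left out. They numbered 15 with upper-quartile factors and 13 with library size alone, a replicate block or the 2 choroid libraries left out. EIF3 genes higher numbered 5, 9 with upper-quartile factors, 9 with library size alone and 8 with the 4 libraries left out. They numbered 4 with RLE factors, no filter, a replicate block or the 2 choroid libraries left out, and 4 to 5 with 1 rat left out. EIF4 genes higher numbered 2, and 1 with RLE factors, no filter, a replicate block or the 2 choroid libraries left out, and 1 to 2 with 1 rat left out. EEF genes higher numbered 2, 1 to 3 with 1 rat left out and 1 without the 2 choroid libraries. Other EIF genes higher numbered 8, and 4 with a replicate block. Replicate numbers are shared by the groups but did not pair the rats (correlations of same-numbered deviations -0.33 to 0.42, and only number 5 matched best with its own), and the block gave 4726 calls over all genes. The calls of Eif1ad, Eif2b5 and Eif3l were lost under the block alone. Leaving out the 2 choroid libraries lost the calls of Eef1b2, Eif2ak3, Eif2s3x, Eif3f, Eif4a3, Eif4ebp1 and Eif4g3 (adjusted p up to 0.136, edgeR). A replicate block with 5 pairs cannot reach 0.05 by exact sign flips, nor can 3 against 3 rats by permutation. The 4 ratios that passed were then at 0.60, -0.44, 0.93 and 0.65 (exact adjusted p = 0.109) and at 0.64, -0.57, 1.16 and 0.83 (exact adjusted p = 0.140), in the order Eif4a1 over Eif4a2, Eif4e over Eif4e2, Eif4ebp1 over Eif4ebp2 and Eif5a over Eif5a2. Eif1 over Eif1b ran from 0.10 to 0.25 with 1 rat left out. The median of all genes moved by less than 0.1 under every scaling, from 0.02 to at most 0.09.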

Other observations

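Ibudilast replicate 3 was the highest ibudilast rat for 39 of the 60 members, against 26.5% of all genes tested, and ibudilast replicate 4 the lowest for 31 of 60, against 33.9%. Among untreated rats, replicate 3 was the highest for 14 and the lowest for 21 of the members, against 32.8% and 35.1% of all genes. These are descriptions of single libraries, with no test.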
